A study of Mus musculus with 3 samples.

Results

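The 6 genes described are Stat2, Stat3, Stat4, Stat5a, Stat5b and Stat6, which encode signal transducers and activators of transcription. They were taken by symbol from the tables of all 3 libraries, 6 of 55536 annotated genes, and each symbol belonged to 1 gene identifier. All 6 reached a mean of at least 10 expected counts, as did 15876 genes in all, which are called measured here. Replicates 1, 2 and 3 form a single group of C57BL/6J mouse macrophages, grown from bone marrow and given 100 ng/ml Lipid A for 15 min. Lipid A is the membrane anchor of bacterial lipopolysaccharide and acts through the receptor Tlr4. RNA of the nuclear fraction, described in the notes as nucleoplasmic, was freed of ribosomal RNA and sequenced, starting from 1 µg in replicates 1 and 3 and from 500 ng in replicate 2. Untreated cells and other fractions were not analysed here, so no value below is a response to Lipid A.

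Stat proteins wait in the cytoplasm until a cytokine receptor is engaged. Jak kinases bound to the receptor then phosphorylate them, and the paired Stat proteins enter the nucleus and bind DNA. In macrophages Stat2 serves type I interferon together with Irf9, Stat3 serves IL-6 and IL-10, the Stat5 proteins serve GM-CSF, and Stat6 serves IL-4 and IL-13, whereas Stat4 is best known for IL-12 signalling in T and NK cells. The tables measure RNA, not phosphorylation or nuclear entry of the proteins.

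The libraries held 18516063, 17345644 and 20947006 expected counts on annotated genes in replicates 1 to 3, so that 3 counts, the limit that a count of 0 allows, equal 0.162, 0.173 and 0.143 CPM (counts scaled to the size of the library). Such limits cover counting error only. The labels record separate biological replicates but a single donor entry, so the spread between libraries may be technical. The label of macrophage was checked by 9 markers, all of them measured, whose summed level was 2568, 3534 and 2970 TPM. In bulk RNA, fewer cells of a type and less RNA per cell cannot be told apart.

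Stat2 and Stat6 led the family in nuclear RNA, Stat3 stood between them and the Stat5 genes, and Stat4 was far below the others. Levels are given in TPM, a unit per transcript length that allows genes to be compared, as the mean ± SD over 3 libraries. Summed over the 6 genes the level was 142, 175 and 158 TPM in replicates 1 to 3. Stat2 supplied 43.8% of that sum, Stat6 32.8%, Stat3 12.8%, Stat5b 5.45%, Stat5a 4.57% and Stat4 0.550%, each as a mean over libraries. For scale, the median measured protein-coding gene had 7.29, 7.34 and 5.46 TPM.

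**Figure D1:**
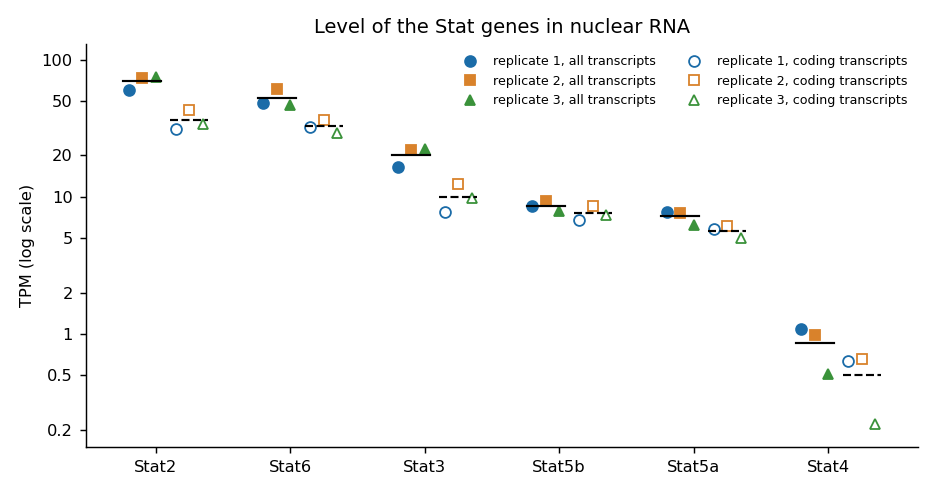
TPM of each Stat gene (log axis) in replicates 1 to 3, with filled symbols for all transcripts of the gene, open symbols for its protein-coding transcripts alone, and solid or dashed lines for the means. Stat2 and Stat6 lie highest with 69.5 and 52.1 TPM, and Stat4 lies lowest with 0.860 TPM.

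Stat2, the Stat protein that joins Irf9 in the interferon-stimulated factor ISGF3, lies on chromosome 10 from 128270559 to 128292849 on the plus strand (GRCm38, as are all positions here). It had 59.7, 74.0 and 74.8 TPM in replicates 1 to 3, from 3727, 4122 and 5472 expected counts. Replicate 1 was the lowest library and the other two lay close together. The mean of 69.5 ± 8.51 TPM (SD, n = 3) exceeded that of 96.3% of measured protein-coding genes. The order of libraries depends on the scale. Rescaled to the sum of protein-coding genes alone, Stat2 had 217, 208 and 351 TPM, with replicate 2 lowest and replicate 3 well above the others. The promoter window of Stat2, 250 bases before to 50 bases after the start site in RefSeq (GRCm38.p6), was searched on both strands for 2 motifs. They were the GAS core TTCNNNGAA, a sequence known for paired Stat proteins, and the ISRE core GAAANNGAAA, the letters that ISGF3 binds. Other spacings between TTC and GAA were not searched, so sites with another spacing would be missed. The Stat2 window held the ISRE core once, on the minus strand, at base -222 from the start site. It is shown in capitals within chr10:128270251-128270310, read on the plus strand, since Stat2 is itself a subunit of the factor known for these letters.
Stat2 window: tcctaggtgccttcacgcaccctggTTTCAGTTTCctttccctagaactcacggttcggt
The ISRE core was found in 3.44% of 32851 RefSeq promoter windows of the same length and the GAS core in 8.30%. Of the 9 windows of the 6 Stat genes, 2 held the ISRE core and 0 held the GAS core. A match in such a window is a description of its letters and shows no binding.

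Stat6, which carries IL-4 and IL-13 signals and with them the alternative activation of macrophages, lies 609.6 kb before Stat2 on chromosome 10, from 127642986 to 127660957 on the plus strand. Its level was 48.6, 61.2 and 46.4 TPM, with replicate 2 highest and the others close together. Counts were 3082, 2947 and 3655, so the order of the libraries in TPM was not that in counts. The mean was 52.1 ± 7.95 TPM (SD, n = 3), above 94.2% of measured protein-coding genes. Rescaled to protein-coding genes, Stat6 had 176, 172 and 218 TPM, with replicate 2 lowest rather than highest. Stat6 overlaps Nab2 by 40 bases on opposite strands, and whether counting used the strand is not given in the sources used here, so reads there may come from either gene.

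Stat3, which answers IL-6 and IL-10 and restrains inflammatory gene expression in macrophages, lies on chromosome 11 from 100885098 to 100939540 on the minus strand. It had 16.5, 21.9 and 22.4 TPM from 1057, 1331 and 1716 counts. Replicate 1 was again lowest, and replicates 2 and 3 were near each other. The mean of 20.3 ± 3.30 TPM (SD, n = 3) exceeded that of 80.2% of measured protein-coding genes. Rescaled to protein-coding genes, Stat3 had 59.8, 61.7 and 105 TPM, so replicates 1 and 2 were then near each other.

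Stat5a and Stat5b, neighbours that serve GM-CSF and related cytokines, had nearly the same level. Stat5b (chromosome 11, 100780731 to 100850724, minus strand) had 8.56, 9.36 and 7.87 TPM, a mean of 8.60 ± 0.746 (SD, n = 3). Stat5a (chromosome 11, 100859351 to 100885169, plus strand) had 7.76, 7.61 and 6.20 TPM, a mean of 7.19 ± 0.861 (SD, n = 3). The lowest Stat5b library, at 7.87 TPM, was just above the highest Stat5a library, at 7.76 TPM. Rescaled to protein-coding genes the ranges overlapped, with the lowest Stat5b library at 26.3 TPM and the highest Stat5a library at 29.1 TPM. Both stood near the middle of the measured protein-coding genes, above 57.1% of them for Stat5b and 51.6% for Stat5a. The 2 genes run away from each other across a gap of 8626 bases, and the end of Stat5a overlaps the end of Stat3 by 72 bases on opposite strands.

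Stat4, which carries IL-12 signals in lymphocytes, lies on chromosome 1 from 51987148 to 52107189 on the plus strand. It had 1.09, 0.980 and 0.510 TPM, a mean of 0.860 ± 0.308 (SD, n = 3), above 12.2% of measured protein-coding genes. Its rounded counts were 53, 39 and 24, with exact Poisson 95% intervals of 39.7 to 69.3, 27.7 to 53.3 and 15.4 to 35.7 that cover counting error only. All 3 libraries were therefore well above the limit of 3 counts. The intervals of replicates 1 and 3 did not overlap as counts, while that of replicate 2 overlapped both. A second ISRE core lay 97 bases before the inner start site of Stat4 in RefSeq, 3 bases from the start of transcript Stat4-201, in chr1:52008118-52008177 on the plus strand, shown for comparison with the Stat2 window.
Stat4 inner window: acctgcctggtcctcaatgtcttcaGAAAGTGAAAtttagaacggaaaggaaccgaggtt
The window of the outer Stat4 start site held neither motif. The gene at the high end of the family and the gene at its low end shared these letters.

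Because Stat4 is known from lymphocytes, markers of other cells were read beside it. Of 7 T cell markers, 1 was measured, Cd4 with 21.4 ± 9.68 TPM (SD, n = 3), and Cd3e, Cd2 and Thy1 had 0 counts in all 3 libraries. The summed T cell markers had 12, 31.3 and 21.1 TPM in replicates 1 to 3, of which Cd4 alone made 11.9, 31.2 and 20.9 TPM. The other 6 T cell markers had 0 to 4 counts in each library, so their order between libraries cannot be set beside that of Stat4. Of 7 NK cell markers, 1 was measured, Klrk1 with 7, 34 and 11 counts, and Ncr1, Eomes, Gzma and Klra8 had 0 counts in all 3 libraries. Their sum was 0.300, 0.840 and 0.25 TPM. Of 6 dendritic cell markers 5 were measured, with sums of 1.79, 3.48 and 1.37 TPM, highest in replicate 2. The 6 B cell markers summed to 1.03, 6.48 and 3.78 TPM, with only Ighm measured, and the 6 neutrophil markers to 1.2, 1.64 and 1.29 TPM, with 0 measured.

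Ordered by level, the family ran Stat2, Stat6, Stat3, Stat5b, Stat5a, Stat4. Each of the 15 pairs was compared as the difference of log2(TPM + 0.1) within a library, and tested by an exact permutation of signs, two-sided. All 15 differences had the same sign in 3 of 3 libraries, and every p was 0.25, adjusted 0.25, the smallest that 3 libraries allow, so no pair could pass a threshold. Stat2 exceeded Stat6 by 0.42 ± 0.23 log2 units (SD, n = 3), 1.34-fold, and their TPM ranges overlapped. Stat6 exceeded Stat3 by 1.36 ± 0.27, 2.57-fold, and Stat3 exceeded Stat5b by 1.22 ± 0.28, 2.33-fold, without overlap in either case. Stat5b exceeded Stat5a by 0.26 ± 0.10, 1.2-fold, and Stat5a exceeded Stat4 by 2.98 ± 0.34, 7.87-fold. The ends of the order, Stat2 and Stat4, were 6.23 ± 0.65 log2 units or 75.1-fold apart, a value that the pseudocount lowers because Stat4 is near it. The steadiest pair was Stat2 over Stat3, with 1.85, 1.75 and 1.73 log2 units in replicates 1 to 3. The pair that varied most was Stat3 over Stat4, with 3.8, 4.35 and 5.21.

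The level of a gene in TPM sums all its annotated transcripts, and short ones weigh heavily in it. When protein-coding transcripts alone were summed, a setting chosen after the values were seen, Stat2 had 31.1, 43.1 and 34.0 TPM and Stat6 32.2, 36.3 and 29.2 TPM. Stat2 was then lower than Stat6 in replicate 1 and higher in the other libraries, with a mean difference of 0.14 log2 units. Stat3 had 7.78, 12.3 and 9.85 TPM on that basis and Stat5b 6.78, 8.59 and 7.34 TPM, ranges that overlap, and their difference was 0.38 log2 units. The coding transcripts of Stat5a had 5.85, 6.10 and 5.04 TPM, below each Stat5b library, and those of Stat4 had 0.630, 0.660 and 0.220 TPM. The mean order of the 6 genes was the same in both ways of summing.

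Libraries were compared for each gene on normalised CPM, that is CPM after edgeR's TMM scaling, since the TPM of a gene depends on the values of all other genes in its library. Stat2 had 189, 234 and 284 normalised CPM in replicates 1 to 3, Stat3 had 53.6, 75.5 and 89.0, and Stat5b had 43.9, 50.5 and 61.0. Stat6 varied least, with 156, 167 and 190. All 4 were lowest in replicate 1 and highest in replicate 3. Stat5a had 26.9, 22.0 and 31.9 normalised CPM, lowest in replicate 2 and highest in replicate 3. Stat4 had 2.79, 2.32 and 1.35, with the opposite ends from the first 4. Replicate 3 was thus the highest library for 5 of the 6 genes, where it was the highest for 31.9% of all measured genes, and replicate 1 the lowest for 4, against 34.8% of all. The same 5 and the same 4 genes were found under each of 5 other scalings or count tables.

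**Figure D2:**
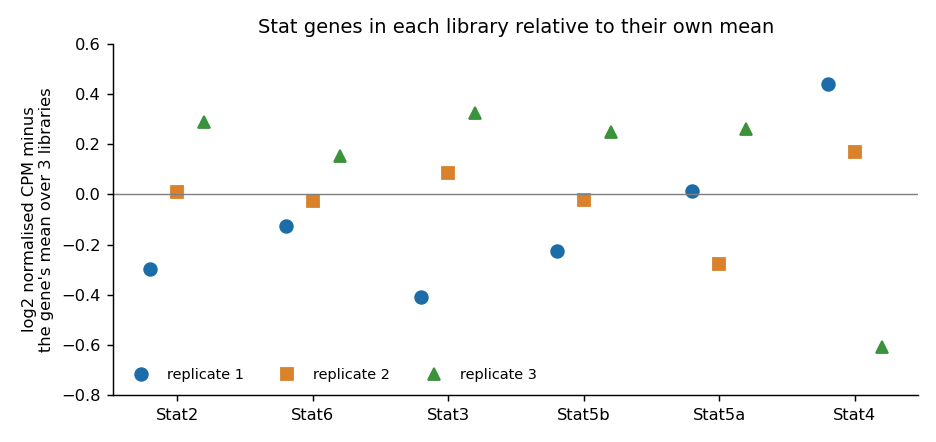
log2 normalised CPM of each Stat gene in replicates 1 to 3, minus the mean of that gene over the 3 libraries. Replicate 3 is the highest for all genes shown except Stat4, for which it is the lowest with 1.35 normalised CPM.

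Against the mean of the other libraries, replicate 3 differed by 0.43 log2 units for Stat2, 0.48 for Stat3, 0.39 for Stat5a, 0.37 for Stat5b, 0.23 for Stat6 and -0.91 for Stat4. Replicate 1 differed by -0.45 for Stat2, -0.61 for Stat3, -0.34 for Stat5b, -0.19 for Stat6, 0.02 for Stat5a and 0.66 for Stat4. Replicate 2, from the smaller amount of RNA, differed by -0.41 for Stat5a and 0.25 for Stat4, and by 0.13 or less in size for the other genes. A gene was called when a library lay at least 1.5-fold above both others or below both others. No test stands behind such a call, since a single library has no replicate on its own side. In replicate 1, 0 of the 6 Stat genes were called above, beside 10.4% of measured genes, and 0 were called below, beside 8.46%. In replicate 2, 0 Stat genes were called in either direction, beside 3.99% of measured genes above and 6.25% below. In replicate 3, 0 Stat genes were called above, beside 4.89%, and 1 below, Stat4, beside 5.74%. Stat4 in replicate 3 was at 0.531-fold of the mean of the others, and the call was lost at a 2-fold threshold.

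The SD of log2 normalised CPM over the libraries was 0.14 for Stat6, 0.24 for Stat5b, 0.27 for Stat5a, 0.29 for Stat2, 0.37 for Stat3 and 0.54 for Stat4, beside a median of 0.32 over all measured genes. A smaller SD than that of Stat6 was found for 15.4% of measured genes, but with second-table counts the SD of Stat6 was 0.24. The difference of Stat6 in replicate 3 from the other libraries, 0.23 with TMM, was 0.05 with library totals alone and 0.42 with second-table counts. The highest library exceeded the lowest by 1.21-fold for Stat6, 1.39-fold for Stat5b, 1.45-fold for Stat5a, 1.5-fold for Stat2, 1.66-fold for Stat3 and 2.07-fold for Stat4. Genes near Stat4 in level were also more variable, with a median SD of 0.45. Near the other members the median SD was 0.26 for Stat2, 0.23 for Stat3, 0.25 for Stat5a, 0.23 for Stat5b and 0.25 for Stat6. Of the genes near in level, 57.4% had a smaller SD than Stat2, 76.9% than Stat3 and 63.3% than Stat4. For Stat5a, Stat5b and Stat6 it was 53.8%, 53.4% and 20.7%.

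Coding transcripts carried most counts of every Stat gene. Transcripts are named by the annotation, and the share of a transcript is the part of the gene's estimated counts that the authors' model gave to it. The leading transcript of Stat2, Stat2-201 with 24 exons and 922 codons, held 87.3 ± 4.0% (SD, n = 3) in the first transcript table and 81.9% in the second. Stat6-201, with 22 exons and 837 codons, held 92.5 ± 1.49% and 84.6%. In these 2 genes a single transcript held over 79% of counts in every library and both tables.

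**Figure D3:**
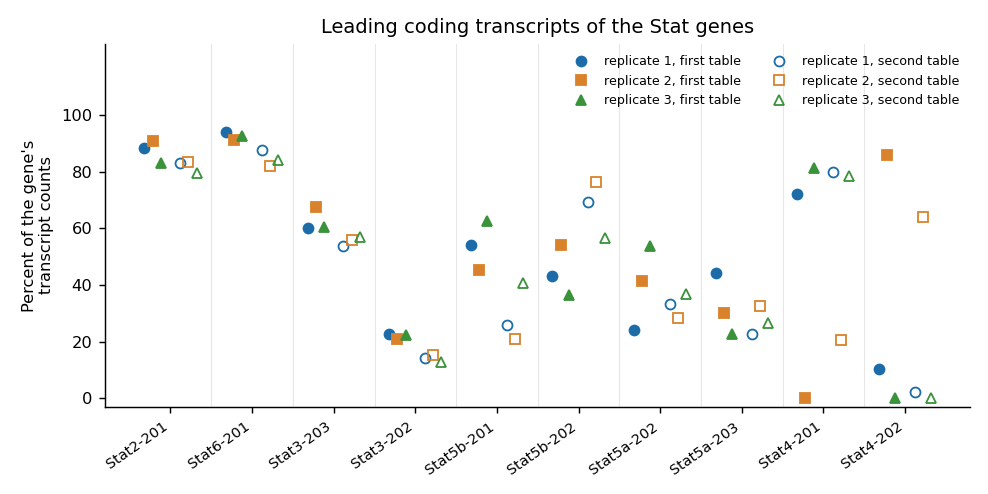
Share of the gene's transcript counts (percent) in the leading coding transcripts, with filled symbols for the first and open symbols for the second transcript table, replicates 1 to 3. Stat2-201 and Stat6-201 hold most of their genes in both tables, while Stat5b-201 has the higher mean of its pair in the first table and Stat5b-202 in the second.

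Stat3 is known in a full-length form, alpha, and a form with a shorter end, beta. Stat3-203, with 770 codons, held 60.02, 67.6 and 60.4% of Stat3 counts in replicates 1 to 3. Stat3-202, with 722 codons, held 22.6, 20.9 and 22.3%. Stat3-203 was above Stat3-202 in 3 of 3 libraries and in both tables, where the second gave means of 55.6% and 14.2%. Their coding sequences have 2310 and 2166 bases, so the coding ends differ by more than the skipped stretch. They part at a stretch of 50 bases at the start of exon 23 of 24, at chr11:100889541-100889590 on the minus strand. It is part of Stat3-203 and skipped in Stat3-202, and is shown in capitals between 30 bases on each side, because it tells the longer form from the shorter one.
Stat3-203: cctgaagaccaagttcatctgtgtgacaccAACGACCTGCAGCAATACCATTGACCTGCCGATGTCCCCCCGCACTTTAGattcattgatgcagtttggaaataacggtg
Stat3-202: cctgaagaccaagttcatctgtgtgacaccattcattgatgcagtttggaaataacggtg
The annotated transcripts also differ at their ends. Stat3-202 runs 1712 bases further at the 3′ end and Stat3-203 starts 136 bases further upstream, so reads of those ends count towards the shares as well as reads of the 50 bases. Stat3-201, which is 1 codon shorter than Stat3-203, held 1.37 ± 1.19% (SD, n = 3).

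Stat5b was divided between transcripts that differ in their start. Stat5b-201 starts at 100850724, near Stat5a, and held 54.1, 45.1 and 62.7% of counts in the first table. Stat5b-202 starts further in, at 100822528, and held 43.3, 54.0 and 36.5%. Stat5b-201 led in replicates 1 and 3 and Stat5b-202 in replicate 2. In the second table Stat5b-202 led in all 3 libraries, with 69.1, 76.3 and 56.5%, against 26, 20.8 and 40.8% for Stat5b-201. Both encode 786 codons, so the leading start was not settled by these tables while the coding length was the same in either.

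Stat5a was divided among more transcripts. Stat5a-202 held 24, 41.4 and 53.7% in the first table and Stat5a-203 held 44.1, 29.9 and 22.6%, so Stat5a-203 led in replicate 1 and Stat5a-202 in the other libraries. In the second table Stat5a-202 held 33.2, 28.3 and 36.8% and Stat5a-203 held 22.6, 32.5 and 26.5%, so that Stat5a-203 was above Stat5a-202 in replicate 2 instead, and the leading form of Stat5a was not settled. They encode 793 and 797 codons. The non-coding Stat5a-207 held 18.7 ± 3.25% (SD, n = 3) in the first table and 28.5% in the second, the largest non-coding share of a single transcript among the 6 genes. Stat4 counts went mostly to Stat4-201, from the inner start site, in replicate 1 with 72.0% and replicate 3 with 81.2%, and to Stat4-202, from the outer start site, in replicate 2 with 85.9%. Stat4-201 had 0% in replicate 2. In the second table Stat4-201 held 20.6% and Stat4-202 63.9% in that library. These shares rest on 53, 39 and 24 counts, and both transcripts have 748 codons.

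The Stat5 genes shared far more sequence with each other than any other pair of the family. Their leading coding sequences were identical at 2125 of 2343 aligned bases, 90.7%, where the other 14 pairs were at 58.2 to 65.5%. Of all stretches of 31 bases in Stat5a transcripts, 11.5% also occurred in Stat5b, and 15.1% of those of Stat5b occurred in Stat5a. At 100 bases the shares were 3.44% and 4.79%. Read in the direction of the transcripts, the one other pair with a stretch of 31 bases in common was Stat2 and Stat3, with 9 such stretches. Opposite strands were not compared, and there the ends of Stat5a and Stat3 overlap by 72 bases. The longest identical run was 324 bases, coding positions 571 to 894 in both, across exons 7 to 9 of Stat5a-202 (chr11:100874023-100874983, plus strand) and exons 6 to 8 of Stat5b-201 (chr11:100797741-100798701, minus strand), introns included in the coordinates. Its ends are shown, 60 identical bases in capitals and 20 bases of the flank in lower case, because a read inside this run cannot be told between the genes while a read across its edge can.
Stat5a upstream end: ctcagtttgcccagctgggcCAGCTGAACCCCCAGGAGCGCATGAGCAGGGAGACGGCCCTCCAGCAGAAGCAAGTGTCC
Stat5b upstream end: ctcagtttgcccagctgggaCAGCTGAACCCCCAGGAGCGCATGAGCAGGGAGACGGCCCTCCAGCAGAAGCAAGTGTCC
Stat5a downstream end: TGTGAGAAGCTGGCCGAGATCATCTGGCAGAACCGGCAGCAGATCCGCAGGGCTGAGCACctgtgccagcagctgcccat
Stat5b downstream end: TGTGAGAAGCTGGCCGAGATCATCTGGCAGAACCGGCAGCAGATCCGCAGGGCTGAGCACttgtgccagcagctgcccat
The expected counts of both genes were fractional in every library, rounded to 529, 386 and 613 for Stat5a and 865, 889 and 1174 for Stat5b. Those of Stat2, Stat3 and Stat6 were whole. Fractions were not particular to the Stat5 genes, since Stat4 had 52.75 and 38.85 counts in replicates 1 and 2. No stretch of 31 bases in Stat4 was found in another Stat gene. Stat4 does overlap the non-coding gene Gm28177 by 29929 bases on the same strand, and that gene had 2, 5.38 and 0 counts. It also overlaps the pseudogene Gm3940 by 432 bases on the opposite strand, with 1 count in each library. Whether Stat4 shared reads with either gene was not tested. Since the model may divide shared reads in more than one way, the small difference between the Stat5 genes is uncertain. It had the same direction in the second table, at 0.24 log2 units.

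Nuclear RNA holds transcripts in the course of splicing, and the annotation lists retained-intron transcripts for 4 of the Stat genes. Stat2 had 11.8, 9.18 and 15.9% of its counts in them, Stat3 had 15.3, 11.5 and 15.3%, and Stat6 had 5.91, 8.89 and 7.58%. Stat4 had 16.8 ± 2.46% (SD, n = 3), from few counts. The means of 12.3 ± 3.37% for Stat2, 14.0 ± 2.19% for Stat3 and 7.46 ± 1.49% for Stat6 (SD, n = 3) lay below the median of 19.3% over 7231 measured genes that have such a transcript. Stat5a and Stat5b have no transcript of that type. The second table gave 18.1%, 23.4%, 18.3% and 13.1% for Stat2, Stat3, Stat4 and Stat6, beside a median of 23.9%. As a share of TPM the same transcripts had 48.1%, 50.8%, 44.4% and 37.1%, beside a median of 31.8%, so on that scale the 4 genes were above the median rather than below it. These transcripts cover short stretches of a gene, and intron reads outside annotated exons are in none of the tables.

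**Figure D4:**
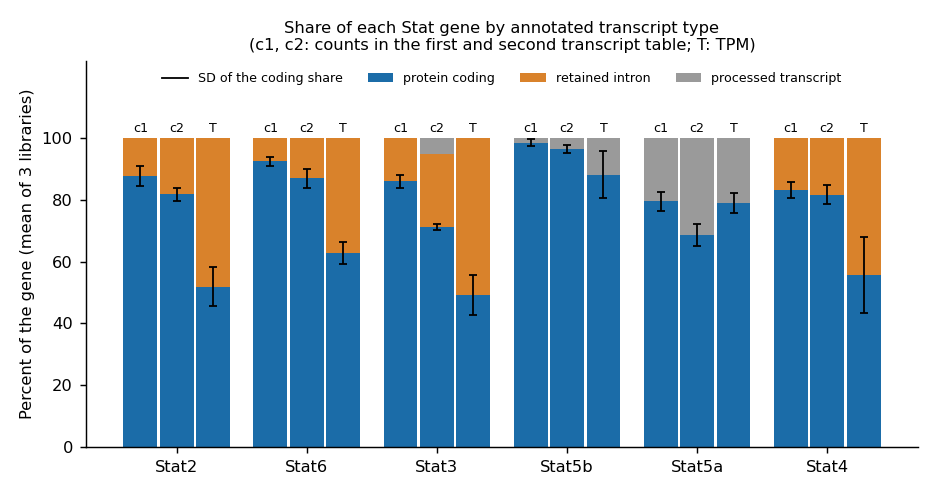
Share of each Stat gene (percent, mean of 3 libraries, bars from 0) in protein-coding, retained-intron and processed transcripts, by counts in the first table, counts in the second table and TPM, with the SD of the coding share. Retained-intron transcripts of Stat2 hold 12.3% of counts and 48.1% of TPM.

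Outside Stat4, the retained-intron transcript with the largest mean share of counts in the first table was Stat3-208, with 8.06, 7.04 and 6.11% of Stat3 counts. In the second table it held a mean of 9.34%, and Stat6-205 held 9.41% of Stat6. It covers introns 15 and 16 of Stat3-203 whole, of 1160 and 227 bases. Intron 16, at chr11:100894837-100895063 on the minus strand, is shown with 15 bases of exon on each side and its first and last 2 bases in capitals, as the sequence that separates this RNA from spliced Stat3. It holds 4 tandem copies of a unit of 36 bases, so a short read inside the copies has several places in it.
Stat3 intron 16: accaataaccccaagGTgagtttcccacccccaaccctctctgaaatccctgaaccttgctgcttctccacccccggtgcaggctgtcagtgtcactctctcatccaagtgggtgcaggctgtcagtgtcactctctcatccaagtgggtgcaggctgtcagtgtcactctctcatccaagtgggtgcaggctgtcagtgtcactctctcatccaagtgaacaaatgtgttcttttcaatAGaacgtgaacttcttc
In Stat2, Stat2-206 had 3.25 ± 1.05% of counts and Stat2-205, which covers intron 16 of 101 bases, 2.88 ± 1.64% (SD, n = 3). In Stat6, Stat6-205 had 4.23 ± 1.25% and Stat6-204, which covers intron 21 of 77 bases, 3.01 ± 0.393% (SD, n = 3).

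The genes that act with the Stat proteins were read from lists of 91 genes, of which 78 were measured and 49 had a mean of at least 10 TPM. Among the Jak kinases, which phosphorylate Stat proteins, Tyk2 had 25.3 ± 3.00 and Jak1 25.2 ± 3.13 TPM, while Jak3 had 8.93 ± 1.02 and Jak2 7.41 ± 1.71 (SD, n = 3). Upstream of Stat2, the type I interferon receptor chains Ifnar1 and Ifnar2 had 47.9 ± 11.5 and 49.2 ± 8.19 TPM and its partner Irf9 had 17.8 ± 2.14 TPM, against 69.5 for Stat2 itself. The interferon lambda receptor chain Ifnlr1 had 1, 0 and 2 counts, under the limit of 3, and the lowest measured chain of that list was Ifngr2 with 15.0 ± 2.67 TPM.

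Upstream of Stat3, the IL-10 receptor chains Il10rb and Il10ra had 77.5 ± 9.40 and 46.9 ± 13.7 TPM, and the IL-6 receptor chains Il6st and Il6ra had 37.6 ± 12.7 and 17.9 ± 6.76 TPM (SD, n = 3). The lowest measured chain was the receptor of leukaemia inhibitory factor, Lifr, with 3.10 ± 1.21 TPM, and the oncostatin M receptor Osmr had 3, 3 and 1 counts. Upstream of Stat4, the IL-12 receptor chains Il12rb2 and Il12rb1 had 3.57 ± 0.835 and 1.45 ± 0.300 TPM, and Il23r had 1, 2 and 0 counts. The low level of Stat4 thus stood beside low levels of the IL-12 and IL-23 receptor chains, the only ones listed for it here.

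Upstream of the Stat5 proteins, the GM-CSF receptor chains Csf2ra and Csf2rb had 77.6 ± 9.48 and 78.5 ± 35.7 TPM (SD, n = 3), about as high as Stat2 and well above either Stat5 gene. The value of Csf2rb is uncertain, since Csf2rb2 is a close copy of it. The erythropoietin receptor Epor had 1.84 ± 0.480 TPM, and Prlr and Il5ra had 0 counts. Upstream of Stat6, Il4ra had 62.6, 32.9 and 33.1 TPM in replicates 1 to 3 and Il13ra1 had 1.26, 2.83 and 2.13 TPM. Replicate 1 was thus high for Il4ra and low for Il13ra1, a receptor chain that pairs with it, while Il13ra2 had 0 counts.

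**Figure D5:**
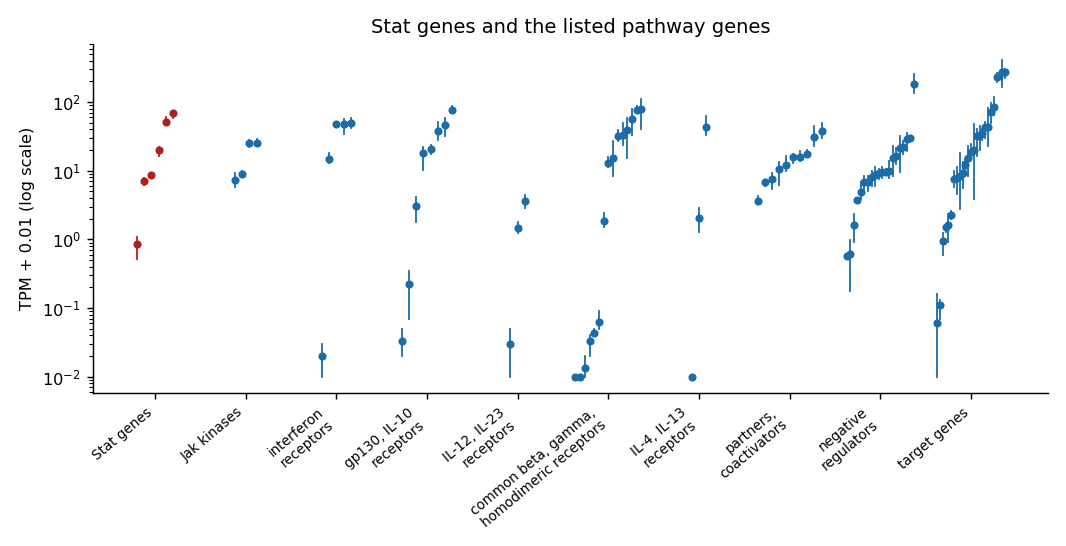
Mean TPM (points) with the range over 3 libraries (lines) for the Stat genes and for each list of pathway genes, on a log axis of TPM + 0.01, genes ordered by level within a list. The 6 Stat genes span 0.860 to 69.5 TPM, while the receptor lists run from genes at 0 counts to Csf2rb at 78.5 TPM.

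Of 20 negative regulators all were measured, led by the phosphatase Ptprc with 181 ± 63.8 TPM, and Socs1 was lowest with 0.557 ± 0.0379 TPM (SD, n = 3). Socs3, the feedback inhibitor that Stat3 induces, had 798, 391 and 1764 counts, called below in replicate 2 and above in replicate 3. Cish, a Stat5 target that inhibits its receptors, had 59, 191 and 215 counts and was called below in replicate 1. Of 10 partners and coactivators, all measured, Ep300 was highest with 38.5 ± 9.97 TPM and Nmi lowest with 3.63 ± 0.617 TPM. Of 25 known target genes 23 were measured. Fos was highest with 274 ± 41.1 TPM and Arg1, a Stat6 target of alternative activation, was lowest of those measured with 0.947 ± 0.333 TPM. Other Stat6 targets were uneven, with Mrc1 at 413, 239 and 166 TPM and Retnla at 0, 0 and 2 counts. Interferon targets were uneven as well. Oas2 had 86.1 ± 27.9 TPM and Irf7 had 35.1 ± 6.60 TPM, while Ifit1 had 7.75 ± 3.51 TPM and Isg15 7.61 ± 2.13 TPM.

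Of the 78 measured genes of the lists, 6, 1 and 10 were called above both other libraries in replicates 1, 2 and 3, and 18, 2 and 0 below. Over all measured genes the shares called were 10.4, 3.99 and 4.89% above and 8.46, 6.25 and 5.74% below. The median difference of a library from the mean of the others was -0.30, -0.03 and 0.31 log2 units over the listed genes and -0.26, -0.01 and 0.38 over the 6 Stat genes, beside 0.02, 0.00 and 0.00 over all measured genes. The 9 macrophage markers had medians of -0.18, -0.19 and 0.49. The higher replicate 3 was thus seen in the medians of the pathway lists and the macrophage markers as well as of the Stat genes. The lower replicate 1 was seen in the medians of the pathway lists and the Stat genes. In the markers replicate 2 was as low as replicate 1. Listed genes were not uniform, since in replicate 1 the target genes had 5 called above and 6 below. Ccnd1 and Myc were among those above, at 8.68-fold and 5.32-fold of the mean of the others. The deposited effective lengths fell short of the full lengths of long genes by 227, 221 and 186 bases in replicates 1 to 3, an estimate of fragment length that was lowest in replicate 3. Their part in the result was not tested.

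The listed genes with a mean of at least 100 counts, 70 besides the Stat genes, were ranked by the distance of their log2 normalised CPM, centred on the gene's own mean, from each Stat gene over 3 libraries. With so few libraries, closeness is common, so the share of 10277 genes as close is given as well. Nearest to Stat2 was Jak1, with 110, 135 and 173 normalised CPM, at a distance of 0.06 and with 0.671% of genes as close. Next was Il2rg, with 2.03% of genes as close. Nearest to Stat3 were Il2rg and Il12rb2, with 1.36% and 2.02%. Nearest to Stat5a were Pias4 and Ifngr1, with 1.07% and 2.42%, and nearest to Stat5b were Irf9 and Tyk2, with 1.78% and 2.33%. Nearest to Stat6 were Il10rb and Ifnar2, with 1.21% and 1.34%. Stat4 had no close neighbour in the lists, the nearest being Bcl6 at a distance of 0.43, with 7.28% of genes as close, and Kpna1 at 0.46.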

How the data were processed

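Per the file headers, each library's gene table and first transcript table hold expected counts and TPM as the authors deposited them, under RSEM's column names. The bounds of the authors' credibility intervals, treated as a score, were not used in any comparison. The second transcript table, under kallisto's column names, holds estimated counts and TPM, also deposited by the authors. Per the deposited notes, the build was mm10 and the annotation GENCODE M21. No program version, strand setting or read assignment is given in the sources used here.

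Expected counts were rounded and scaled with edgeR 4.0.16 in R 4.3.3 (TMM factors 1.07, 1.02 and 0.921 over genes averaging at least 10 counts; log2 CPM with a prior count of 2). DESeq2 1.42.0 gave alternative size factors. The procedure was tested on simulated counts with changes larger than those of any Stat gene. That test therefore does not show how well differences of the size seen here are called. Each deviation is a library minus the mean of the other libraries, called from 1.5-fold. TPM was compared as log2(TPM + 0.1), which understates differences of low genes. Positions, transcript types and coding sequences came from GENCODE M21 (GRCm38), and promoter windows from RefSeq (GRCm38.p6). Coding sequences were aligned in place of proteins, which were not used here. The depth was 17345644 to 20947006 counts.

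The members and lists were chosen with earlier results of these data known. Named were all 6 members, the highest and lowest measured gene of each list, genes with a role for a Stat protein, and the 2 listed genes closest to each member. Genes with 0 counts were named for that role.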

Additional observations from a re-analysis of the deposited data

How the results depend on the processing

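The direction of all 15 differences between Stat genes was kept under pseudocounts of 1 and 0.01, in the second table, with coding transcripts alone (chosen after seeing the data) and without each replicate in turn. Levels of Stat2, Stat6, Stat3, Stat5b, Stat5a and Stat4 moved by more than the spread between libraries under 3 settings. In the second table they were 37.6, 33.3, 16.5, 4.32, 3.63 and 0.373 TPM, rescaled to protein-coding genes 259, 189, 75.5, 31.4, 26.2 and 3.03 TPM, and over coding transcripts alone 36.1, 32.6, 9.99, 7.57, 5.66 and 0.503 TPM. Second-table TPM was lower in most genes, with a median shift of -0.80, -0.18 and -2.16 log2 units in replicates 1 to 3, and relative to it Stat3 stood at 0.43 and Stat4 at -0.59; by shares of library counts they stood at -0.06 and -0.23. The retained-intron share moved to 18.1% for Stat2, 23.4% for Stat3 and 13.1% for Stat6 in the second table, and to 48.1%, 50.8%, 44.4% and 37.1% for Stat2, Stat3, Stat4 and Stat6 as a share of TPM, which weighs short transcripts more. In the second table Stat2-201 held 81.9%, Stat3-203 55.6%, Stat5b-201 29.2% and Stat6-201 84.6% of counts. The cause of the differences between the tables was not tested. At a 2-fold threshold 0 Stat genes were called below in replicate 3; the call of Stat4 was kept under the other 5 scalings and count tables. No paired analysis was possible because the labels give a single group. Counting error limits Stat4, with 24 to 53 counts, more than the other members.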
